A study of Mus musculus with 6 samples.

Results

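The Slc25 family comprises the carrier proteins that move metabolites across the inner membrane of mitochondria, and its transcripts were measured in the livers of 6 mice. Its members were taken as every probe for a gene whose name in the array files begins with Slc25a, which gave 50 probes of 39429 and 42 genes. Of these genes, 37 were among the 19616 features that passed the filter on dim signals, and 36 of the 37 were well above background on all 6 arrays. The remaining tested gene, Slc25a41, met the filter in control livers only. Slc25a2, Slc25a18, Slc25a31, Slc25a35 and Slc25a43 were too dim to test in either diet.

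The mice were male C57BL/6 animals, 5 weeks old when they were divided between the diets. In the restricted group, 3 mice ate a diet moderately restricted in carbohydrate. In the control group, 3 mice ate a control diet from LabDiet. The sample titles call both diets supplemented, without naming a supplement. All 6 mice, controls included, received a transposon vector carrying human HrasG12V, a short hairpin named shp53 and GFP4 by hydrodynamic injection into the tail vein, a model of liver cancer, and RNA came from liver outside the tumours. No group without the vector was analysed here, so the comparison is between diets within this model. The sample labels give 1 week of feeding before the injection and 5 weeks of diet, while the text on the series gives 2 weeks and 4 weeks. The title of the series adds phytochemicals to the restricted diet. If only that diet held them, carbohydrate restriction and phytochemicals cannot be told apart in these data. Each label names 1 mouse, so the spread between arrays covers mice as well as the assay.

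Each array was Agilent's 1-colour mouse design with probes of 60 bases. A level below is log2 of the processed signal minus log2 of that array's 75th percentile, and a difference is the restricted mean minus the control mean on that scale. A gene was called higher or lower at an adjusted p below 0.05 in limma, with Benjamini-Hochberg adjustment over all 19616 features. Between 23527 and 23878 probes were well above background on the restricted arrays, against 24422 to 25815 on the control arrays. The arrays lay on 2 slides. Restricted mouse 1 and all 3 control mice were on slide 1, and restricted mice 2 and 3 were alone on slide 2. With the slide as a block, the estimate therefore rests on 1 restricted mouse against 3 control mice.

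Carriers of this family share a fold of 6 membrane-spanning helices, and most exchange 1 solute for another. In hepatocytes they export ATP, feed citrate to lipid synthesis, pass reducing equivalents through the malate-aspartate shuttle, bring in acylcarnitines for oxidation and serve the urea cycle. They are encoded in the nucleus, and small TIM chaperones escort the finished proteins to the inner membrane.

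In restricted livers 13 of the 37 tested carriers were higher (35.1%, against 14.6% of all features) and 2 were lower (5.41%, against 12.8% of all features), so that 40.5% were called either way, against 27.5% of all features. Differences ran between -2.20 for Slc25a24 and 1.92 for Slc25a34. The median was 0.57 over the carriers and 0.12 over all features, a gap of 0.45. The gap was 0.295 with normexp background correction and 0.234 with no filter on dim probes. Of the 22 carriers that were not called, 16 had a positive difference and 6 a negative one. Called or not, 29 carriers were positive and 8 negative, against 11357 and 8259 of all features. The lowest restricted mouse lay above the highest control mouse for 17 carriers, where 26.1% of all features did so, and the reverse held for 2 carriers, where 18.8% of all features did so (44.8% of all features were apart in either direction). Relative to each gene's mean over the 6 mice, the median carrier stood at 0.37, 0.33 and 0.25 in restricted mice 1, 2 and 3, against -0.24, -0.35 and -0.24 in control mice 1, 2 and 3. The median of all features stood at 0.05, 0.03 and 0.09 in the same restricted mice, against -0.10, -0.08 and 0.03 in the control mice. For the carriers, no mouse of either diet crossed to the other side.

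Fewer carriers were called with the slide taken into account or with any 1 mouse left out except control mouse 3. Without control mouse 3, 13 were higher (35.1%, against 16.7% of all features). The number higher was 7 without restricted mouse 2 (18.9%, against 8.0% of all features in that fit) and 8 without control mouse 2 (21.6%, against 8.09% of all features). With the slide as a block, 3 were higher (8.11%, against 5.71% of all features) and 2 lower (9.65% of all features), and on slide 1 alone 2 were higher (5.26%, against 4.11% of all features). The share on slide 1 alone was near that of all features. The median difference was then 0.70 with the block and 0.68 on slide 1 alone. All 15 called carriers kept their sign in every alternative that was run. Their groups did not overlap, so leaving out a mouse, blocking the slide or using slide 1 alone could not have reversed a sign. The diets and the slides overlap only through restricted mouse 1, and the part of the slide in the smaller counts was not tested.

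**Figure D1:**
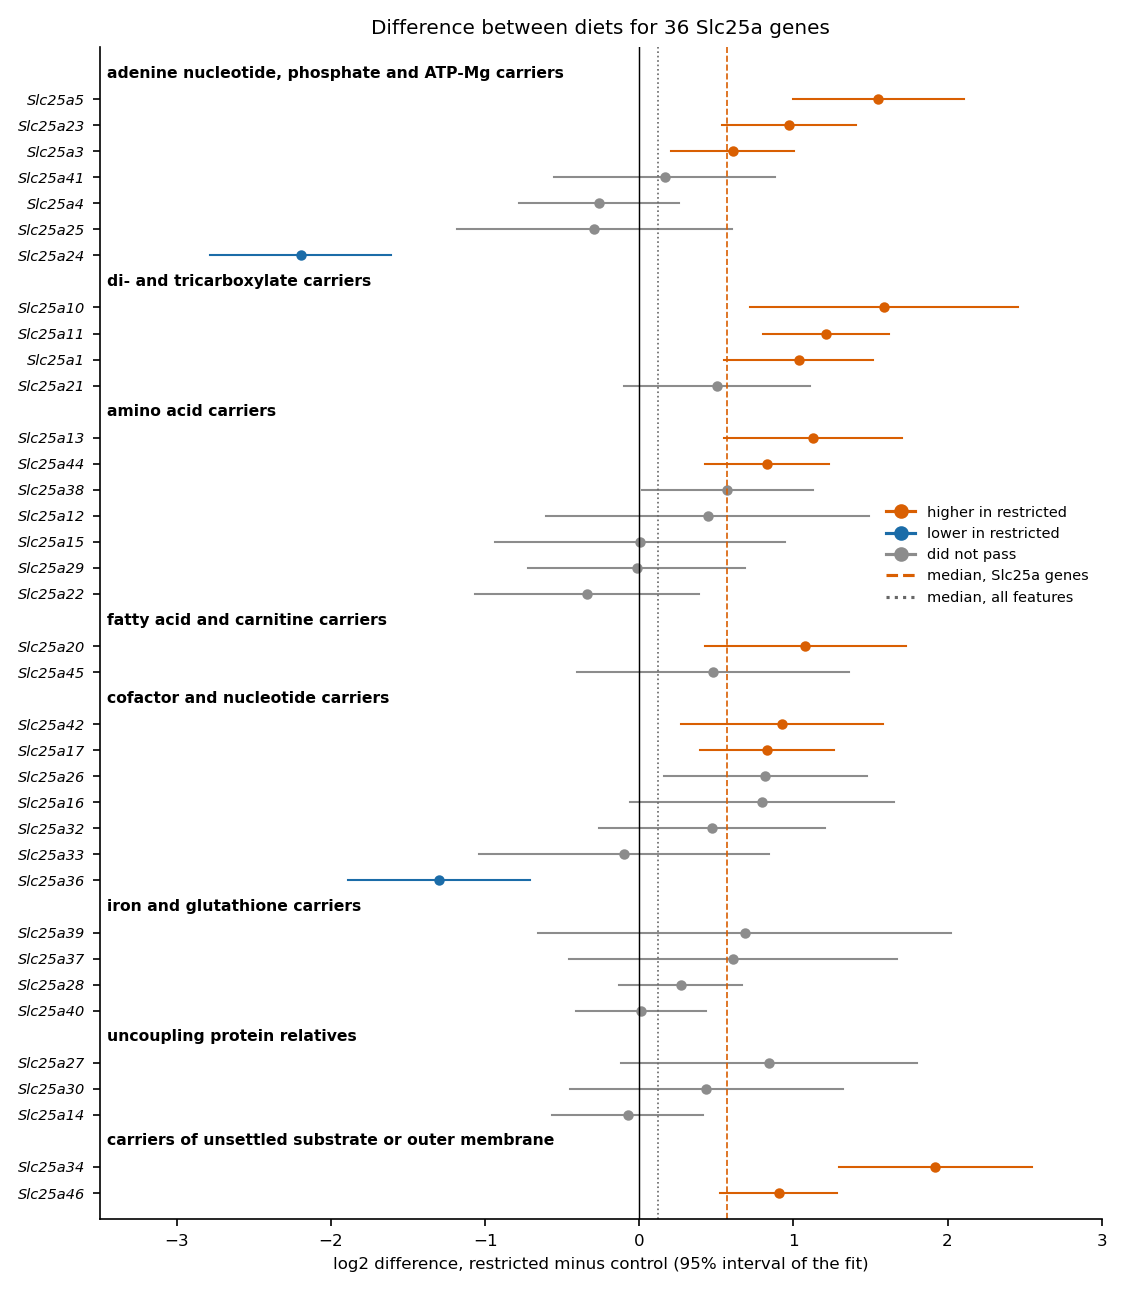
The log2 difference between diets (restricted minus control, x axis) is drawn for 36 of the 37 tested Slc25a genes, grouped by what they carry, with points at the estimate and bars for the 95% interval of the fit over 3 mice per diet. Orange points are the 13 genes called higher, blue points the 2 called lower, and the dashed and dotted lines mark the medians of the carriers (0.57) and of all features (0.12).

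Among the carriers of adenine nucleotides and phosphate, 3 of 7 tested genes were higher and 1 was lower (14.6% and 12.8% of all features). Slc25a5 encodes ADP/ATP translocase 2, an isoform that exchanges matrix ATP for cytosolic ADP. Its levels were 4.90, 4.83 and 4.33 in restricted mice, against 3.21, 3.37 and 2.83 in control mice, and the groups did not overlap. The difference was 1.55 ± 0.23 (SE, n = 3 per diet), a 2.93-fold higher signal with an adjusted p of 0.00378, and the call held in all 16 alternatives. Its probe lies at chrX:34338580-34338639 in mm9, the build of the array files.

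Slc25a4 encodes ADP/ATP translocase 1, best known from heart and skeletal muscle. Levels of 2.40, 2.30 and 1.85 in restricted mice overlapped with 2.44, 2.69 and 2.21 in control mice, and the difference of -0.26 ± 0.22 (SE, n = 3 per diet) was not called (adjusted p = 0.413). The 2 translocases are close relatives, so the probe is shown. Probes were compared only with each other, and whether this one also binds Slc25a5 transcripts was not tested. The Slc25a4 probe shares no run longer than 5 bases with the Slc25a5 probe, and over all pairs of tested carriers the longest shared run was 12 bases. The Slc25a4 probe, at chr8:47292828-47292887 (mm9, minus strand), reads
Slc25a4: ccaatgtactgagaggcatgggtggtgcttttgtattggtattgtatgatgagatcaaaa

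The phosphate carrier Slc25a3, which supplies phosphate to the ATP synthase, had levels of 4.45, 4.38 and 4.19 in restricted mice, against 3.77, 3.84 and 3.60 in control mice. The groups were apart by a small margin, and the difference was 0.61 ± 0.17 (SE, n = 3 per diet, adjusted p = 0.0362). The call was lost whichever mouse was left out (adjusted p between 0.0569 and 0.119), under quantile normalization (0.33, adjusted p = 0.143), with no filter on dim probes (adjusted p = 0.0618) and with the slide block (adjusted p = 0.113). A second probe for Slc25a3 gave 0.51 and was not called (adjusted p = 0.1).

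The ATP-Mg/phosphate carriers adjust the adenine nucleotide pool of the matrix and most respond to calcium, and they did not move together. Slc25a23 had levels of -1.82, -1.47 and -1.70 in restricted mice, against -2.50, -2.83 and -2.57 in control mice. Every restricted mouse was above every control mouse, by 0.97 ± 0.18 on average (SE, n = 3 per diet, adjusted p = 0.00913), and the call was lost with the slide block (adjusted p = 0.097). With normexp background correction the difference was 0.60. Slc25a24 had the lowest difference of the family. Its levels were -3.34, -2.83 and -2.82 in restricted mice, against -0.45, -0.81 and -1.15 in control mice. The groups were far apart, with a difference of -2.20 ± 0.25 (SE, n = 3 per diet), a 4.59-fold lower signal in restricted livers (adjusted p = 0.00122) that was called in all 16 alternatives. Its size was -1.29 with normexp background correction. Slc25a25 (-0.29) and Slc25a41 (0.17) were not called. The Slc25a24 probe lies at chr3:108971266-108971325 in mm9.

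Of the 4 carriers of di- and tricarboxylates, 3 were higher and none was lower (14.6% and 12.8% of all features). Slc25a11, the oxoglutarate carrier and a part of the malate-aspartate shuttle, had levels of 4.58, 4.60 and 4.67 in restricted mice, against 3.20, 3.43 and 3.60 in control mice. Restricted mice were closely spaced and all lay above the controls. The difference was 1.21 ± 0.17 (SE, n = 3 per diet), a 2.31-fold higher signal (adjusted p = 0.00307). It remained called with the slide block (adjusted p = 0.0332) and was not called on slide 1 alone (adjusted p = 0.0746). The probe lies at chr11:70457739-70457798 in mm9.

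Slc25a1 exports citrate for lipid synthesis in the cytosol. It had levels of 2.92, 2.95 and 2.64 in restricted mice, against 2.11, 1.71 and 1.58 in control mice. The groups did not overlap, and the difference was 1.03 ± 0.20 (SE, n = 3 per diet, adjusted p = 0.0108). With the slide as a block the difference was not called (adjusted p = 0.0615).

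Slc25a10, the dicarboxylate carrier, exchanges malate or succinate for phosphate. It had levels of -0.41, 0.11 and -0.96 in restricted mice, against -1.54, -1.86 and -2.63 in control mice. Mice of both diets were widely spread but did not overlap, and the difference was 1.59 ± 0.37 (SE, n = 3 per diet, adjusted p = 0.0195). The call was lost without control mouse 2 (adjusted p = 0.0528), without restricted mouse 1 (adjusted p = 0.0501), without restricted mouse 2 (adjusted p = 0.0621) and with the slide block (adjusted p = 0.114). Slc25a21, the oxodicarboxylate carrier, had a difference of 0.50 and was not called (adjusted p = 0.189).

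Amino acid carriers were higher in 2 of 7 tested cases and lower in none (14.6% and 12.8% of all features). Slc25a13, known as citrin, is the liver's aspartate-glutamate carrier. Levels were 4.11, 4.00 and 3.79 in restricted mice, against 3.12, 3.04 and 2.36 in control mice. The groups were apart, and the difference was 1.13 ± 0.24 (SE, n = 3 per diet, adjusted p = 0.015). The call was lost without restricted mouse 2 (adjusted p = 0.0541) and with the slide block (adjusted p = 0.0673). Slc25a12, the aspartate-glutamate carrier best known from brain and muscle, had a difference of 0.44 ± 0.44 (SE, n = 3 per diet) with overlapping groups and was not called (adjusted p = 0.493).

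Slc25a44 imports branched-chain amino acids in brown fat of mice. It had levels of 1.19, 1.16 and 1.36 in restricted mice, against 0.24, 0.45 and 0.54 in control mice. The groups did not overlap, and the difference was 0.83 ± 0.17 (SE, n = 3 per diet, adjusted p = 0.0122). A second probe gave 0.64 and was not called (adjusted p = 0.0913), and neither was the first with the slide block (adjusted p = 0.0989). The glycine carrier Slc25a38, which serves heme synthesis, had a difference of 0.57 that was not called (adjusted p = 0.117) but passed without control mouse 3 (adjusted p = 0.0219). Slc25a15, the ornithine carrier of the urea cycle (0.01), Slc25a22, a glutamate carrier (-0.34), and Slc25a29, a carrier of basic amino acids (-0.02), were not called.

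Slc25a20, the carnitine-acylcarnitine translocase, brings long-chain acyl groups into the matrix for oxidation. Its levels were 0.71, 1.23 and 0.37 in restricted mice, against -0.03, -0.25 and -0.65 in control mice. The lowest restricted mouse stood above the highest control mouse, and the difference was 1.08 ± 0.28 (SE, n = 3 per diet, adjusted p = 0.0274). The call was lost without control mouse 2 (adjusted p = 0.0751), control mouse 3 (adjusted p = 0.06), restricted mouse 1 (adjusted p = 0.0607) or restricted mouse 2 (adjusted p = 0.083), with no filter on dim probes (adjusted p = 0.0525), and with the slide block (adjusted p = 0.167). Slc25a45, a relative of Slc25a20, had a difference of 0.48 that was not called. The Slc25a20 probe is shown because it alone measures the translocase on this array. It lies at chr9:108585399-108585458 (mm9, plus strand) and reads
Slc25a20: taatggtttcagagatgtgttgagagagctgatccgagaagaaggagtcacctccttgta

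Cofactor and nucleotide carriers were higher in 2 of 8 tested cases and lower in 1 (14.6% and 12.8% of all features). The number lower was near the share of all features. Slc25a42 carries coenzyme A into mitochondria. It had levels of 3.66, 4.14 and 4.40 in restricted mice, against 2.71, 3.25 and 3.45 in control mice. The groups stood apart, though each spread widely, and the difference was 0.93 ± 0.28 (SE, n = 3 per diet, adjusted p = 0.0461). The call was lost without control mouse 1 (adjusted p = 0.133), control mouse 2 (adjusted p = 0.101), restricted mouse 2 (adjusted p = 0.128) or restricted mouse 3 (adjusted p = 0.128). It was also lost under quantile normalization (adjusted p = 0.125) and with no filter on dim probes (adjusted p = 0.081), and with the slide as a block the difference was 0.52 (adjusted p = 0.391).

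Slc25a17 sits in the peroxisomal membrane and carries coenzyme A, FAD and NAD. Its levels were 2.99, 2.99 and 3.24 in restricted mice, against 2.06, 2.20 and 2.46 in control mice. The groups did not overlap, and the difference was 0.83 ± 0.18 (SE, n = 3 per diet, adjusted p = 0.0165). Leaving out control mouse 1 (adjusted p = 0.0607), control mouse 2 (adjusted p = 0.0612), restricted mouse 2 (adjusted p = 0.0511) or restricted mouse 3 (adjusted p = 0.0549) ended the call, as did the slide as a block (adjusted p = 0.134).

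Slc25a36, a carrier of pyrimidine nucleotides, was the other gene called lower. It had levels of -4.23, -3.60 and -3.78 in restricted mice, against -2.94, -2.45 and -2.32 in control mice. All restricted mice were below all control mice, with a difference of -1.30 ± 0.25 (SE, n = 3 per diet), a 2.46-fold lower signal (adjusted p = 0.00956). The signal was dim, and with normexp background correction the difference was -0.37 and not called (adjusted p = 0.207). With the slide as a block the call held (adjusted p = 0.0201). The probe lies at chr9:96978166-96978225 in mm9. Slc25a33, the other pyrimidine nucleotide carrier, was not called, and its probes differed in sign (-0.10 and 0.17).

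Slc25a26 carries S-adenosylmethionine into mitochondria, and its probes differed in call. The probe with the higher signal, which stood for the gene, had levels of 0.55, 0.19 and 0.11 in restricted mice, against -0.50, -1.04 and -0.07 in control mice. The groups did not overlap, and the difference of 0.82 ± 0.28 (SE, n = 3 per diet) was not called (adjusted p = 0.069), although it passed under median scaling (adjusted p = 0.045) and without control mouse 3 (adjusted p = 0.027). The second probe had levels of -1.0, -1.39 and -1.51 in restricted mice, against -2.12, -2.34 and -2.18 in control mice, a difference of 0.92 with an adjusted p of 0.0146 when every probe was fitted as its own feature. That probe is shown because its bases fall in separate stretches of the genome. It covers 60 bases within a span of 794, chr6:94548392-94549185 (mm9, plus strand), and reads
Slc25a26: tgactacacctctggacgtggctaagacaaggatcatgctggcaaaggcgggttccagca

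The coenzyme A-linked carrier Slc25a16 had a difference of 0.79 and was not called (adjusted p = 0.15). Slc25a32, which carries folate or FAD (0.47), was not called either.

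None of the 4 iron and glutathione carriers was called (27.5% of all features were called either way). Slc25a37, or mitoferrin 1, delivers iron to mitochondria and is best known from red cell precursors. Its levels were 1.48, 2.59 and 3.12 in restricted mice, against 1.30, 1.76 and 2.31 in control mice. The groups overlapped, and the difference was 0.61 ± 0.45 (SE, n = 3 per diet, adjusted p = 0.359). On slide 1 alone it was -0.31. Mitoferrin 2, Slc25a28, had a difference of 0.27, Slc25a39, a glutathione carrier, one of 0.68, and its relative Slc25a40 one of 0.01.

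The carriers that resemble uncoupling proteins, Slc25a14, Slc25a27 and Slc25a30, were not called (27.5% of all features were called either way). Slc25a14, also known as brain uncoupling protein, had levels of -1.02, -0.41 and -0.73 in restricted mice, against -0.49, -0.71 and -0.73 in control mice, overlapping groups with a difference of -0.08 ± 0.21 (SE, n = 3 per diet, adjusted p = 0.818). Slc25a27 (0.84) and Slc25a30 (0.43) had positive differences.

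Both tested genes with an unsettled substrate or a place in the outer membrane were higher (14.6% of all features were). Slc25a34, whose substrate is not settled, had the highest difference of the family. Its levels were 0.63, 0.31 and 0.31 in restricted mice, against -1.70, -1.84 and -0.97 in control mice. The groups were more than a full log2 unit apart at their nearest mice, and the difference was 1.92 ± 0.27 (SE, n = 3 per diet), a 3.79-fold higher signal (adjusted p = 0.00268) that was called in all 16 alternatives. Its probe lies at chr4:141174747-141174806 in mm9.

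Slc25a46 is an outer membrane protein that acts on the shape and fusion of mitochondria. It had levels of 2.95, 2.97 and 2.94 in restricted mice, against 2.20, 2.02 and 1.92 in control mice. Restricted mice were almost identical and all above the controls, and the difference was 0.90 ± 0.16 (SE, n = 3 per diet, adjusted p = 0.00739). It was not called with the slide block (adjusted p = 0.0613), and a second, dimmer probe gave 0.66 with an adjusted p of 0.255.

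**Figure D2:**
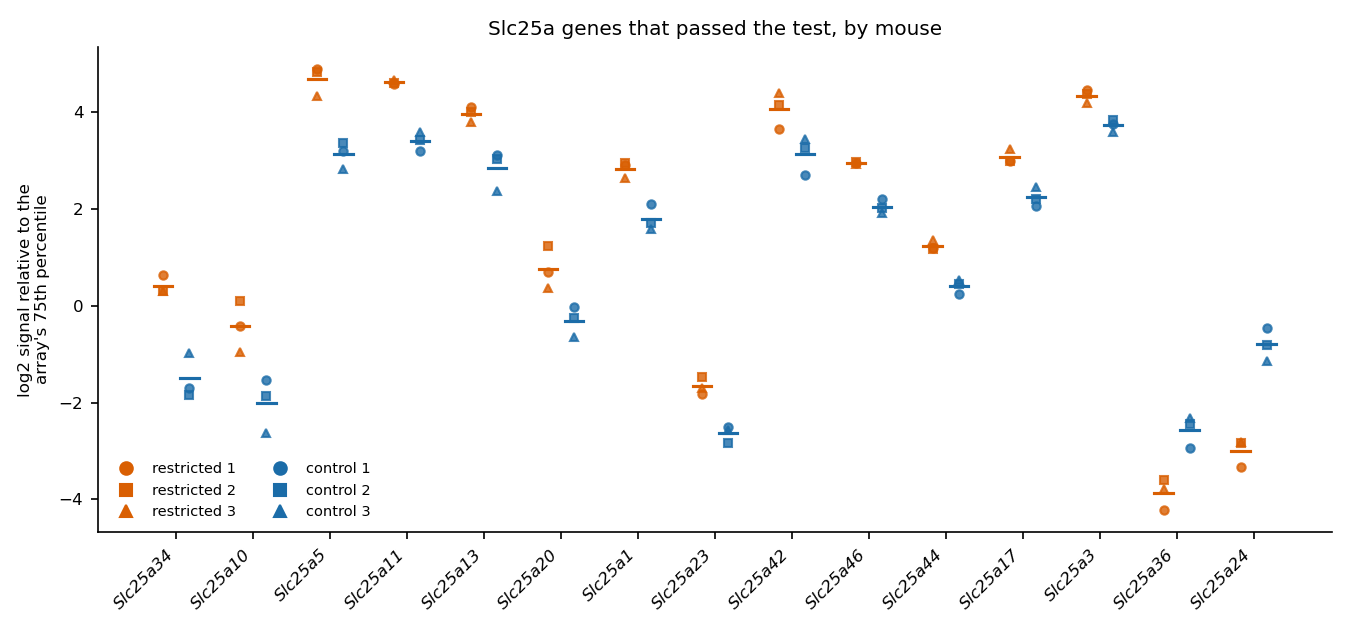
Levels (log2 of the signal over the 75th percentile of its array, y axis) are drawn for each mouse and each of the 15 called Slc25a genes, in order of their difference, with restricted mice in orange to the left of control mice in blue and short bars at the group means. The 3 restricted mice lie above the 3 control mice for 13 genes and below them for Slc25a36 and Slc25a24, and symbols give the mouse number.

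Several carriers have a paralog of like activity, and the balance between such pairs was compared as a log2 ratio of their signals in each mouse. A ratio of 2 probes has no absolute meaning, so its difference between diets is the measure. The ratio of Slc25a5 to Slc25a4 was 2.50 ± 0.03 in restricted mice and 0.69 ± 0.08 in control mice (SD, n = 3 each), a difference of 1.82. For Slc25a23 over Slc25a24 the ratio was 1.33 ± 0.20 in restricted mice and -1.84 ± 0.35 in control mice (SD, n = 3 each), a difference of 3.17. Neither ratio overlapped between the diets. For Slc25a23 over Slc25a24 this was fixed in advance, since restricted mice lay above the controls for the first gene and below them for the second. With normexp background correction the second difference was 1.89. Whether the translocase probes bind each other's transcripts was not tested, which limits the ratio of Slc25a5 to Slc25a4.

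The ratio of Slc25a13 to Slc25a12 differed by 0.68 and that of Slc25a33 to Slc25a36 by 1.20, in both cases without overlap. In the first of these pairs the groups all but touched, with restricted mouse 1 and control mouse 3 both at 3.345. In the last pair restricted mice 2 and 3, at 5.35 and 5.52, were close to control mice 1 and 2, at 5.18 and 5.16. Its difference was 0.19 with normexp background correction, 0.65 without control mouse 3 and 1.98 with the slide as a block. The ratio of the mitoferrins, Slc25a37 over Slc25a28, overlapped between diets, with a difference of 0.34 (two-sided exact permutation p = 0.7). That value was -0.59 on slide 1 alone and 0.05 to 0.80 when 1 mouse was left out. The 4 pairs without overlap each had an exact p of 0.1, the smallest that 3 mice against 3 allow. After adjustment over the 5 pairs it was 0.125, so none could pass 0.05. Of single features, 44.8% were apart in either direction.

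Some proteins of the same fold go by other names in the files and were outside the selection. Of 10 such genes, 7 were tested. Mtch2, a protein of the outer membrane, had levels of 5.45, 5.41 and 5.43 in restricted mice, against 4.03, 4.10 and 4.04 in control mice, and was higher by 1.38 ± 0.15 (SE, n = 3 per diet, adjusted p = 0.00107). The probe now assigned to Slc25a48, listed under AU042651, had levels of -2.05, -1.89 and -1.45 in restricted mice, against -3.51, -3.60 and -3.43 in control mice. It was higher by 1.72 ± 0.20 (SE, n = 3 per diet, adjusted p = 0.00148), or by 0.97 with normexp background correction. For both genes every restricted mouse lay above every control mouse. A second, dimmer Mtch2 probe gave 1.06 and was not called as its own feature (adjusted p = 0.0805). Mtch1 (0.16), Slc25a47 (-0.13) and Slc25a51, which carries NAD in human cells (-0.25), were not called, and Ucp1, Slc25a53 and Slc25a54 were not tested.

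Uncoupling protein 2, Ucp2, is abundant in macrophages and other immune cells. Its levels were -1.42, -0.20 and -0.88 in restricted mice, against 1.01, 1.13 and 0.50 in control mice, a difference of -1.71 ± 0.34 (SE, n = 3 per diet, adjusted p = 0.0105). Ucp3, best known from skeletal muscle, had levels of -1.09, -0.07 and -1.09 in restricted mice, against 1.18, 1.22 and 0.25 in control mice, with a difference of -1.63 ± 0.38 (SE, n = 3 per diet, adjusted p = 0.0199). Neither gene's groups overlapped. The Ucp3 call was lost without control mouse 1 (adjusted p = 0.0696), control mouse 2 (adjusted p = 0.0723), restricted mouse 1 (adjusted p = 0.0587) or restricted mouse 3 (adjusted p = 0.0604), and with the slide block (adjusted p = 0.0604). A second Ucp3 probe was not well above background on any array and was not tested. Its mean levels were -7.16 in restricted mice and -7.61 in control mice, far below those of the first probe. The Ucp3 difference thus rests on 1 probe, and why the probes disagree in level was not tested.

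In these bulk livers, fewer cells of a type and less RNA per cell cannot be told apart, and markers of other cell types differed between the diets. All 15 tested macrophage and Kupffer cell markers were lower (12.8% of all features were), and their mean level was 0.07 to 0.64 in restricted mice and 2.52 to 3.01 in control mice. All 9 tested markers of dividing cells were lower too, with mean levels of -4.06 to -3.34 in restricted mice and -1.44 to -0.94 in control mice. Neutrophil markers were lower in 7 of 12 cases and higher in 1 (Elane, 0.67), and stellate cell and fibroblast markers were lower in 6 of 10. Markers of T, NK and B cells were lower in 3 of 8 cases (Cd2, Cd3d and Klrd1) and bile duct markers in 3 of 7 (Epcam, Krt7 and Spp1). Endothelial markers were higher in 5 of 10 cases (Clec4g, Flt4, Lyve1, Oit3 and Tek) and lower in 1 (Fcgr2b), against 14.6% and 12.8% of all features. Of the lower neutrophil markers, Prtn3, Ltf, Ngp and Mpo met the filter on dim signals in control livers only. The higher endothelial markers Flt4 and Tek met it in restricted livers only. Such markers could enter the test only through the diet where they are high. Apart from the endothelial list, each of these lists held more lower than higher markers, in the direction of Slc25a24, Slc25a36, Ucp2 and Ucp3, and their part in those results was not tested.

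Of 14 hepatocyte markers, 7 were saturated on all 6 arrays, among them Alb, which encodes albumin, and so show the labelled tissue without measuring a difference between diets. A further 3 were saturated on some arrays. Of the 4 that were never saturated, Cebpa was higher (1.60), and Cps1 (1.07), Tat (0.44) and G6pc (-0.43) were not called. Their part in the higher carriers was not tested. Erythroid markers bear on the mitoferrin Slc25a37. Of 9 tested, 2 were higher (Alas2 and Klf1) and 1 lower (Slc4a1), against 14.6% and 12.8% of all features. Mean levels were 1.04 to 1.83 in restricted mice and 0.97 to 1.63 in control mice. Epb42 and Rhag were not well above background on any array.

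The proteins that carriers work with were examined as lists. Of 12 genes for the import of carriers into the inner membrane, 5 were higher and none lower (14.6% and 12.8% of all features), with a median difference of 0.67. Among them Timm8a1, a small TIM chaperone, was higher by 0.81 (adjusted p = 0.0138) and Hspd1, the matrix chaperonin, by 0.87 (adjusted p = 0.0142). The others were the small TIM chaperones Timm9 (0.88), Timm10 (1.05) and Timm13 (0.69). Mitochondrial transporters of other families were higher in 8 of 17 cases and lower in 1 (14.6% and 12.8% of all features). Letm1, which exchanges cations for protons, was higher by 1.33 (adjusted p = 0.00362), and Abcb6, a porphyrin transporter, by 1.10 (adjusted p = 0.0042). Sfxn3, a sideroflexin, was lower, with a difference of -2.57 (adjusted p = 0.000463). The calls of both import genes were lost without control mouse 2 (adjusted p = 0.0568 for Timm8a1 and 0.0553 for Hspd1), without restricted mouse 2 (adjusted p = 0.0604 and 0.0609) and with the slide block (adjusted p = 0.126 and 0.127). Hspd1 was also not called under quantile normalization (0.53, adjusted p = 0.0827), and Abcb6 not on slide 1 alone (adjusted p = 0.0961).

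Of 6 enzymes of the malate-aspartate and glycerol phosphate shuttles, 3 were higher and none lower (14.6% and 12.8% of all features). The aminotransferase Got2 was higher by 1.10 (adjusted p = 0.00369) and the malate dehydrogenase Mdh1 by 1.45 (adjusted p = 0.00602), beside the shuttle carriers Slc25a11 and Slc25a13. Both enzymes had restricted mice wholly above control mice, and Mdh2, the mitochondrial malate dehydrogenase, was the other one called (0.81). On slide 1 alone neither Got2 (adjusted p = 0.0522) nor Mdh1 (adjusted p = 0.0501) was called.

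Of 8 genes of the carnitine shuttle, 5 were higher and 1 was lower (14.6% and 12.8% of all features). Cpt2, which acts on the acylcarnitines that Slc25a20 delivers, was higher by 1.54 (adjusted p = 0.00294), and Bbox1, which makes carnitine, by 1.70 (adjusted p = 0.00402). Cpt1a, which forms acylcarnitines in liver (0.95), Crat, an acetyltransferase (1.53), and Slc22a5, the carnitine importer of the cell membrane (1.08), were the others. On slide 1 alone Cpt2 was not called (adjusted p = 0.0616). Cpt1c, a form best known from brain, was the lower gene and met the filter on dim signals in control livers only. It was not well above background in any restricted mouse, so the control signal was at least 1.12-fold higher, a bound that was not itself tested. The measured means were -6.36 in restricted mice and -4.76 in control mice, and the fitted difference of -1.59 had an adjusted p of 0.0306. With normexp background correction the Cpt1c difference was 0.11 (adjusted p = 0.716). Cpt1c was also not called without control mouse 1 (adjusted p = 0.0919), control mouse 2 (adjusted p = 0.0787) or restricted mouse 3 (adjusted p = 0.0587).

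Cytosolic enzymes that use exported citrate and malate were higher in 5 of 6 cases (14.6% of all features were). Me1, malic enzyme, had levels of 4.33, 4.09 and 4.17 in restricted mice, against 1.42, 1.94 and 1.30 in control mice, and was higher by 2.65 (adjusted p = 0.000459). Idh1, the cytosolic isocitrate dehydrogenase, was higher by 1.14 (adjusted p = 0.00321). Aco1 (1.15) and the fatty acid synthesis enzymes Acaca (0.77) and Fasn (1.00) were also called. Acly, which cleaves exported citrate, was the exception. Its levels were 4.13, 4.14 and 3.69 in restricted mice, against 4.30, 4.52 and 4.19 in control mice, so that every restricted mouse lay below every control mouse, with a difference of -0.35 that was not called (adjusted p = 0.24). For Me1 and Idh1, every restricted mouse lay above every control mouse, though Idh1 was not called on slide 1 alone (adjusted p = 0.0559). Of 6 urea cycle enzymes 2 were higher and none was lower (14.6% and 12.8% of all features). Otc was higher by 1.58 (adjusted p = 0.00146) and Asl by 0.85 (adjusted p = 0.0358), while the ornithine carrier Slc25a15 was not called. The Asl call was lost without any 1 of control mice 1, 2 and 3 (adjusted p = 0.0692, 0.117 and 0.0648) or restricted mice 1 and 2 (adjusted p = 0.0774 and 0.0845), under quantile normalization (0.55, adjusted p = 0.1), with no filter on dim probes (adjusted p = 0.0646) and on slide 1 alone (1.28, adjusted p = 0.0539). The Ass1 probe was saturated on all 6 arrays.

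**Figure D3:**
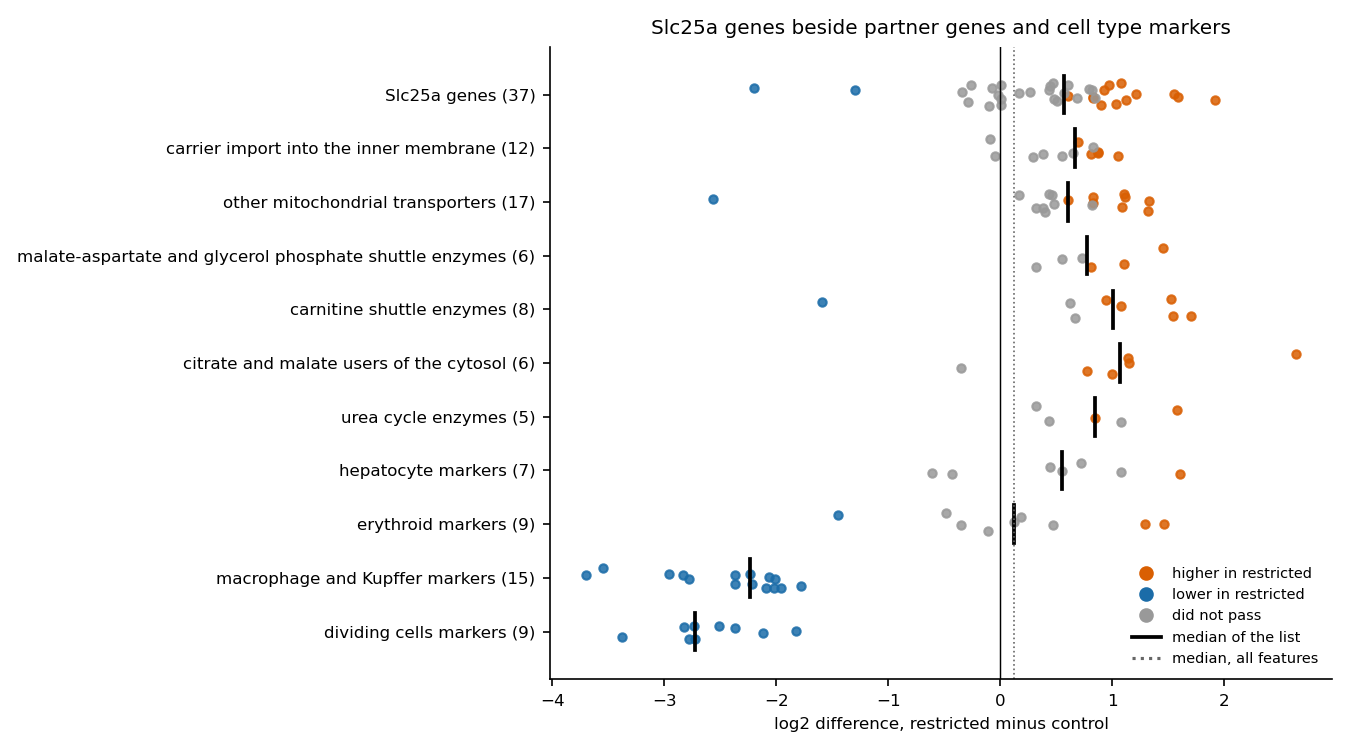
Each point is 1 tested gene, placed by its log2 difference between diets (restricted minus control, x axis) in rows for the 37 Slc25a genes, 6 lists of partner genes and 4 lists of cell type markers, with the number of genes drawn in parentheses, leaving out genes saturated on every array. Black bars mark each list's median and the dotted line the median of all features (0.12), and the macrophage and dividing cell rows lie wholly below 0.

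The calls differed in how they held over the 16 alternatives. Slc25a5 and Slc25a34 among the higher genes and Slc25a24 among the lower ones were called in all of them. Leaving out single mice left 7 of the 13 higher genes called each time and ended the call of the other 6, which are Slc25a3, Slc25a10, Slc25a13, Slc25a17, Slc25a20 and Slc25a42. Of the 22 carriers not called, 11 had a difference within 0.35 of 0, and 12 changed sign under at least 1 alternative.

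**Figure D4:**
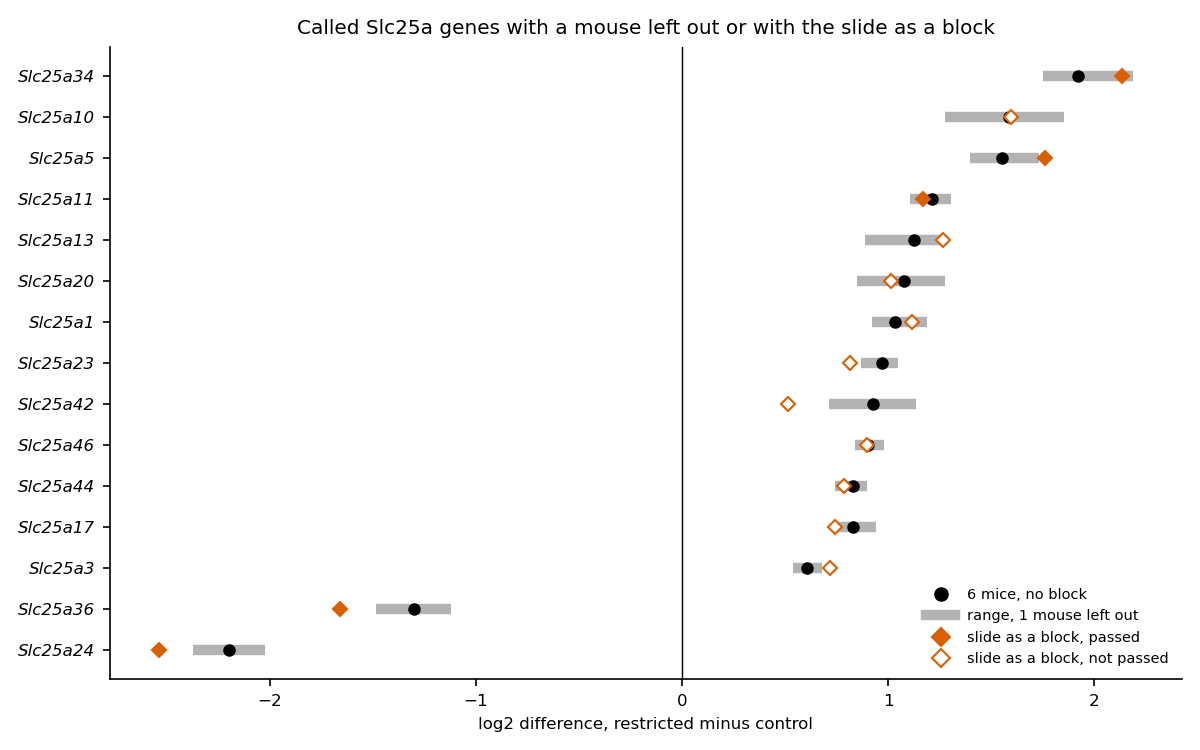
For the 15 called Slc25a genes, the log2 difference (restricted minus control, x axis) is drawn from all 6 mice (black), as the range over the fits that leave out 1 mouse (grey bars) and with the slide as a block (diamonds, filled where called). No bar or diamond crosses 0, as must be so for genes whose groups do not overlap. Filled diamonds mark Slc25a34, Slc25a5, Slc25a11, Slc25a36 and Slc25a24.

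Sequence upstream of the carriers was read from RefSeq (GRCm38.p6), which had a promoter entry for 32 of the 42 genes. For each gene, the 250 bases before its first listed transcription start were searched on both strands. Of the 32 carriers, 6 had several windows, and their other windows were not searched. The letters sought were the NRF1 motif (GCGCA and GCGC, 1 base apart), CCGGAAG (ETS), a direct repeat (AGGTCA and its copy, 1 base apart), TCAAGGTCA (estrogen-related receptor), CACGTG (an E-box) and CCAAT. The direct repeat and the receptor motif share the letters AGGTCA. The ETS letters were present in 5 of the 32 carriers (15.6%) and in 7.05% of all 27025 promoters, and the E-box in 6 carriers (18.8%) and 6.05%. CCAAT was in 15 carriers (46.9%) and 34.5%, and NRF1 in 2 carriers (6.25%) and 3.86%. Slc25a31, which was too dim to test, was among the carriers with the E-box and with NRF1. Neither of the nuclear receptor motifs was in any carrier window searched, and 0.037% and 0.366% of all promoters held them. The median GC content was 59.8% in the carrier windows and 52.0% in all windows, so windows of unlike base composition are being compared.

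Windows are shown for a carrier called higher with and without the slide as a block (Slc25a11), for the acylcarnitine translocase (Slc25a20) and for a carrier called lower (Slc25a36), with the matched letters in capitals. They lie at chr11:70647040-70647289 (minus strand), chr9:108661886-108662135 (plus strand) and chr9:97111042-97111291 (minus strand) in GRCm38.p6. Slc25a11 held CCAAT, Slc25a20 the ETS letters, and Slc25a36 an E-box and CCAAT. A match describes the letters in the window and not binding.
Slc25a11: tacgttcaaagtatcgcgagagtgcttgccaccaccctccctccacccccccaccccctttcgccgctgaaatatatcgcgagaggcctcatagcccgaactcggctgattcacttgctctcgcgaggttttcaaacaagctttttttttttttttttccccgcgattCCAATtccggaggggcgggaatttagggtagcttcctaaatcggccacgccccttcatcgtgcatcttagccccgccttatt
Slc25a20: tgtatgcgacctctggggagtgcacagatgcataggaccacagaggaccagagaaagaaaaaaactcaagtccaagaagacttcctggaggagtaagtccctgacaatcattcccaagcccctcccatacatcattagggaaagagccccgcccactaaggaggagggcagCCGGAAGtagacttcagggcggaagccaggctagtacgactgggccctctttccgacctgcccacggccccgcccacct
Slc25a36: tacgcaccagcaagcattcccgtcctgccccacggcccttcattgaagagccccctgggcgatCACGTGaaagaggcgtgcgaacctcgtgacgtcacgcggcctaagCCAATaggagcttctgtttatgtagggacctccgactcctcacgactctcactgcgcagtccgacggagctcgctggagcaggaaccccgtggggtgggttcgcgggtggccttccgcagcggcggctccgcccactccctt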

How the data were processed

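Total RNA from 6 livers was labelled with Cy3 and hybridised to 1-colour Agilent arrays. The deposited files hold spot intensity from Agilent Feature Extraction, version 10.7.3.1 per the file headers and 9.3.2.1 per the submitters' processing notes. The authors' deposited value table repeats the same processed intensity, within 0.1% for 99.67% to 99.77% of probes, and served as an alternative. Annotation in the files follows mm9.

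Control spots and outlier flags were left out, spots of a probe were averaged, log2 was taken of the processed signal, and each array was scaled by subtracting its 75th percentile. Probes well above background on all arrays of at least 1 diet were kept (24234), and a gene was represented by its brightest probe on average, leaving 19616 features. Gene names were updated through 26055 matched accessions, and members were chosen by the name in the files. The family counts and medians hold 1 tested member that is not reported here by itself. The diets were compared with limma 3.58.1 in R 4.3.3, without a block, and the ratios of paralogs with exact permutation tests (scipy 1.17.1). The fit was tested on simulated data. Array number limits the precision.

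The members and lists were chosen with earlier results of these data known. Values of every mouse were given for up to 4 called genes of each list of roles with the smallest p, for the brightest gene where none was called, and for every gene called lower. Genes with probes that differed in sign or call were named, as were up to 2 called partners per list and direction, and members under other names. The values of Slc25a4, Slc25a12, Slc25a26 and Slc25a37 were set out as paralogs or probe pairs. Other called members of lists with 5 or fewer calls were named after their values were seen. Acly and the hepatocyte markers named were also chosen after their values were seen, as was the recalculation of the paralog ratios under the alternatives. Alternatives covered background correction, scaling, filters, the deposited values, each probe by itself, the slide, the mouse number and leaving out each mouse.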

Additional observations from a re-analysis of the deposited data

How the results depend on the processing

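The family median stayed positive in all 16 alternatives, between 0.46 and 0.70, and its gap to all features lay between 0.234 and 0.583. Leaving out 1 mouse at a time gave 7 to 13 carriers called higher and 2 called lower, and over all features 1583 to 3304 higher and 1770 to 2583 lower. With normexp background correction 1 carrier was called lower. With the slide as a block 3 carriers and 1121 features were higher, and on slide 1 alone 2 carriers and 837 features were higher and 1586 features lower. The mouse number as a replicate block gave 14 carriers higher and 2 lower, with 3651 and 2972 features. It added Slc25a16 (adjusted p = 0.0239) and lost no carrier. The labels do not say that a number pairs mice across diets, and deviations from the diet means correlated at 0.384, -0.002 and 0.482 for mice numbered 1, 2 and 3, with control mouse 2 closest to restricted mouse 1 (0.118).

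All changes of sign were in genes that were not called, apart from Cpt1c (0.11 with normexp). With normexp Slc25a15 was at -0.033 and Slc25a29 at 0.062. With quantile normalization Mtch1 was at -0.12, Slc25a15 at -0.094 and Slc25a29 at 0.077. Median scaling gave 0.016 for Slc25a14 and 0.074 for Slc25a29. With the slide as a block, and on slide 1 alone, Slc25a22 was at 0.32, Slc25a29 at 0.14, Slc25a33 at 0.32, Slc25a37 at -0.31, Slc25a40 at -0.11, Slc25a47 at 0.26 and Slc25a51 at 0.84. Leaving out 1 mouse gave -0.056 to 0.77 for Slc25a12, -0.23 to 0.075 for Slc25a14, -0.46 to 0.31 for Slc25a15, -0.61 to 0.091 for Slc25a25, -0.22 to 0.25 for Slc25a29 and -0.010 to 0.71 for Slc25a30. The same fits gave -0.52 to 0.23 for Slc25a33, -0.06 to 0.13 for Slc25a40, -0.16 to 0.45 for Slc25a41, -0.79 to 0.31 for Slc25a47 and -0.79 to 0.069 for Slc25a51. The cause was not tested. Signal near background limits Slc25a36, Slc25a41 and the untested carriers, and with 3 mice per diet the slide and the diet are separated by 1 mouse.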
